A study of Mus musculus with 8 samples.

Results

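The microRNAs (miRNAs) mmu-miR-23a, mmu-miR-27a, mmu-miR-23b, mmu-miR-27b and mmu-miR-24, written below without the prefix for mouse, were followed in cultured mouse oligodendrocytes, the cells that form myelin, as the cultures aged. They were taken as every row of the array files that carried one of these 5 names, without passenger (star) strands and control spots: 5 of the 650 miRNAs on the array, 10 of its 1857 non-control probes. Each of the 5 had 2 probes, and each probe 10 spots per array. The cells were primary oligodendrocytes of strain C57BL/6J and genotype CNP-Cre, a Cre recombinase driven by the promoter of Cnp, which is active in oligodendrocytes and their precursors. All groups carried it and none received a treatment. Immature cells came from day 0 (3 arrays) or day 1 (2 arrays), mature cells from day 6 (3 arrays), and the comparison asked which miRNAs differ between immature and mature cells. The series text counts the labels' days 0 and 1 as the first and second day in culture and calls the samples independent. Nothing used here says whether they came from separate animals or litters, so p-values measure the spread between these samples only.

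A miRNA is a short RNA that pairs with messenger RNAs, mainly through the bases near its 5′ end called the seed, and lowers their translation or stability. These 5 come from a pair of related clusters, in each of which a miR-23, a miR-27 and a miR-24 hairpin lie side by side and can be cut from 1 long transcript. MiR-23 is known to repress lamin B1, a protein of the nuclear envelope whose excess harms myelin, and to favour oligodendrocyte differentiation. MiR-27 is known for repressing the fat cell regulator PPARγ, and miR-24 for repressing E2F2 and other genes of the cell cycle.

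In RefSeq (build GRCm38.p6), the miR-23a cluster (Mir23a, Mir27a and Mir24-2) spans 404 bases on the plus strand at chr8:84208518-84208921 and overlaps no protein-coding gene. The miR-23b cluster (Mir23b, Mir27b and Mir24-1) spans 792 bases on the plus strand at chr13:63300484-63301275, within the bounds of the protein-coding gene Aopep. The mature sequences are shown because they set what the probes can tell apart. RefSeq's table gave the sequence of 4 of the 5, and miR-23b is named only. In each line the seed, bases 2 to 8 from the 5′ end, is in capitals.
miR-23a (chr8:84208563-84208583): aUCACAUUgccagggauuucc
miR-27a (chr8:84208727-84208747): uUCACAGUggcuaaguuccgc
miR-27b (chr13:63300760-63300780): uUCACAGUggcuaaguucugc
miR-24 (chr8:84208875-84208896 and chr13:63301251-63301272): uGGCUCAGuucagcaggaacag

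MiR-27a and miR-27b share their seed and 20 of 21 bases, with the single difference C19U (miR-27a first, counted from the 5′ end), so that either miRNA may bind the probes of the other; how much was not measured. MiR-24 is cut with the same sequence from both clusters, and its probes cannot tell the source. MiR-23b was absent from that table, so its seed could not be compared with that of miR-23a. Whether miR-23a and miR-23b bind each other's probes was not measured either. Among the 1679 mature mouse miRNAs that the table held, no other shared the seed of miR-23a or of the miR-27 pair. The seed of miR-24 occurred in 4 others (miR-5124b, miR-6369, miR-6410 and miR-6413), of which 0 were on the array.

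The scanner software judged every member well above background on all 8 arrays. Background-subtracted intensities of member probes ran from 145.8 to 1628, and 0 of 800 member spots were saturated. The spots of a probe agreed closely on an array, with a median coefficient of variation of 5.62% (highest 12.6%). Day 0 replicate 1 stood apart on the array as a whole. Its negative control spots spread far more widely, with a scaled median absolute deviation of 30.2 against 2.54 to 3.88, and 61 mouse miRNAs were detected there against 150 to 218 elsewhere. For the bright member spots its median coefficient of variation was 5.42%, and values that it moves are given below without it as well. The miRNAs that mark maturing oligodendrocytes did not follow the day labels array by array. All 4 listed below had a log2 fold above 0 in mature against immature cells, none passing the test used below. MiR-338-3p was highest on day 0 replicate 2 (11.53) and higher on day 1 replicate 1 (11.16) than on day 6 replicates 2 and 3 (9.54 and 10.92). The labels were kept as given, and every difference between immature and mature cells below rests on them. Levels are the log2 of the brightest probe's signal after scaling between arrays, and the levels of different miRNAs are not comparable because each probe binds differently.

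None of the 5 differed between mature and immature cells beyond the spread between arrays, and all 5 means were slightly higher on day 6. By limma with Benjamini-Hochberg adjustment over the 199 mouse miRNAs tested, 0 of 5 members were called at an adjusted p under 0.05 (lowest adjusted p = 0.526) and 0 of 5 at an unadjusted p under 0.05. Over all 199 miRNAs, 2.01% were called and 12.1% had an unadjusted p under 0.05. The members' log2 folds ran from 0.07 to 0.43 with a median of 0.17, against a median of 0.04 over all miRNAs, of which 53.3% lay above 0. Without day 0 replicate 1 they ran from 0.28 to 0.48 with a median of 0.30, against 0.0062 over all, and 0 of 5 were called. The sign of the smaller folds depends on the scaling: without scaling miR-23a, miR-23b and miR-24 had folds below 0, and the median over the 199 shifted to -0.28. With scaling to control probes all 5 lay above 0, where that median shifted to 0.51.

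**Figure D1:**
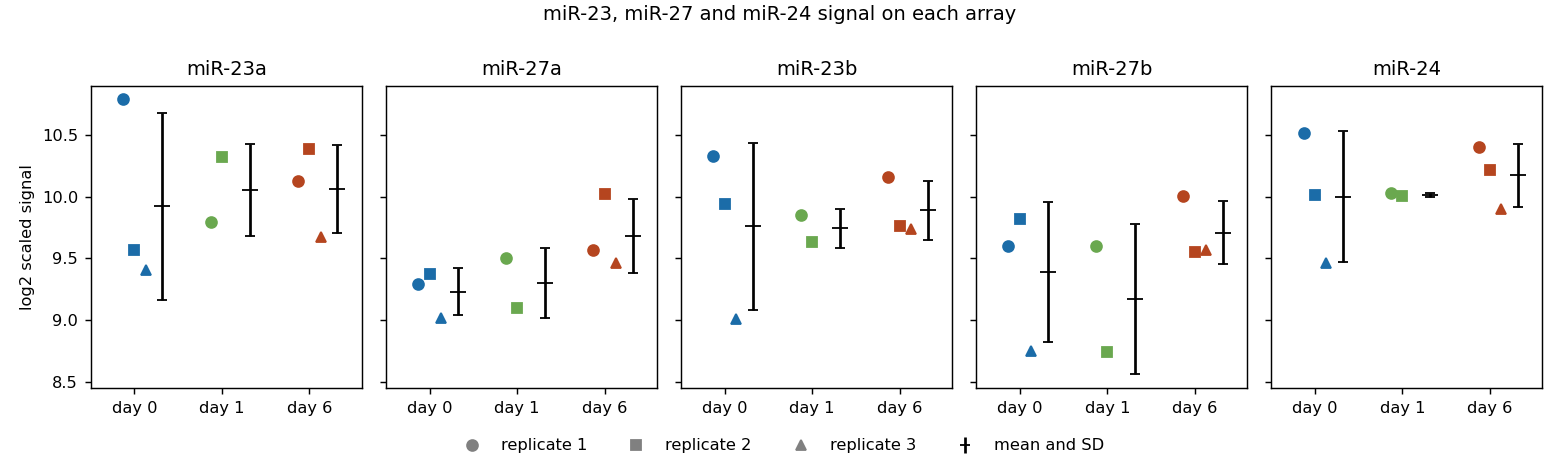
Log2 scaled signal (vertical axis) of each member on each of the 8 arrays, by day in culture, with marker shapes for replicate numbers and a black bar for the mean and SD of the day. Day 6 points overlap the immature points for all 5 miRNAs, and miR-27a has the least overlap; heights are not comparable between panels.

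MiR-27a, from the chromosome 8 cluster, came nearest to a difference. Its level was 9.29, 9.38 and 9.01 on the day 0 arrays, 9.501 and 9.10 at day 1, and 9.57, 10.02 and 9.46 at day 6, in the order of replicates. All 3 mature arrays lay above all 3 of day 0, and 1 of them below the higher day 1 array. The mean was 9.68 ± 0.30 (SD, n = 3) on day 6 against 9.26 ± 0.20 (n = 5) in immature cells, a log2 fold of 0.42 ± 0.23 SE with a 95% interval of -0.12 to 0.96 (limma adjusted p = 0.526). Day 6 against day 0 gave 0.46 ± 0.26 SE (limma adjusted p = 0.509), in which 1 of 5 members, miR-27a, had groups that did not overlap; 10.6% of all 199 miRNAs had every day 6 array above every day 0 array. Its within-day SD of 0.26 was smaller than that of most tested miRNAs (median 0.43).

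MiR-27b, its near-identical counterpart on chromosome 13, varied more within a day. It stood at 9.60, 9.82 and 8.75 at day 0, 9.60 and 8.74 at day 1, and 10.01, 9.55 and 9.56 in the mature cells. The mature arrays lay close together, and 3 of the 5 immature arrays reached their range while day 0 replicate 3 and day 1 replicate 2 lay well below it. The log2 fold of day 6 against immature cells was 0.43 ± 0.33 SE (95% interval -0.33 to 1.18, limma adjusted p = 0.677), about that of miR-27a but with a wider interval. Against day 1 alone it was 0.54 ± 0.41 SE (limma adjusted p = 0.860), with 0.11 without day 1 replicate 2 and 0.97 without day 1 replicate 1.

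MiR-23a had its highest level on the array that stood apart. It stood at 10.79, 9.57 and 9.41 at day 0, 9.79 and 10.32 at day 1, and 10.12, 10.38 and 9.68 in the mature cells. The range of day 0 enclosed all other arrays. The log2 fold of day 6 against immature cells was 0.07 ± 0.37 SE (95% interval -0.77 to 0.92, limma adjusted p = 0.926), and 0.29 without day 0 replicate 1 (limma adjusted p = 0.505). Day 6 against day 0 had 0.14 ± 0.41 SE over all arrays and 0.57 without day 0 replicate 1 (limma adjusted p = 0.260), so this 1 array set most of the value. Its within-day SD was 0.55 with that array and 0.32 without it.

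MiR-23b stood at 10.33, 9.94 and 9.01 at day 0, 9.85 and 9.63 at day 1, and 10.16, 9.76 and 9.74 in the mature cells. Here too day 0 held the highest and the lowest array. The log2 fold of day 6 against immature cells was 0.14 ± 0.32 SE (95% interval -0.60 to 0.87, limma adjusted p = 0.884), and 0.28 without day 0 replicate 1. MiR-24, the product shared by the clusters, stood at 10.52, 10.02 and 9.46 at day 0, 10.03 and 10.002 at day 1, and 10.41, 10.21 and 9.90 in the mature cells. The day 1 arrays were almost equal and lay inside the range of the others. Its log2 fold was 0.17 ± 0.28 SE (95% interval -0.48 to 0.81, limma adjusted p = 0.884), and 0.30 without day 0 replicate 1.

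The order of the day means was day 0, day 1, day 6 from low to high for miR-27a, miR-23a and miR-24, and day 1, day 0, day 6 for miR-27b and miR-23b. No neighbours in these orders differed beyond their spread, by the same limma fit. Between day 1 and day 0 the 5 log2 folds ran from -0.22 (miR-27b) to 0.14 (miR-23a), with 0 of 5 called and 1.51% of all miRNAs called (unadjusted p under 0.05 for 0 of 5 members and 8.04% of all). The lowest adjusted p of a member by limma was 0.975. Between day 6 and day 0 they ran from 0.13 to 0.46, with 0 of 5 called and 4.02% of all called (unadjusted p under 0.05 for 0 of 5 members and 13.6% of all). Between day 6 and day 1 they ran from 0.0052 to 0.54, with 0 of 5 called and 0% of all, where 0 of 5 members and 8.54% of all had an unadjusted p under 0.05. These comparisons share arrays.

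Groups that did not overlap were also counted, among the members and over all miRNAs. With so few members, the counts cannot show whether such groups were rarer among them than over all miRNAs. Apart from miR-27a, whose mature arrays lay above those of day 0, no member had one group wholly above or below the other in any comparison. Over all miRNAs, 3.52% lay wholly above and 4.02% wholly below in mature against immature cells, and 10.6% above and 6.03% below in day 6 against day 0. The shares were 10.1% above and 17.1% below in day 6 against day 1, and 10.1% above and 3.02% below in day 1 against day 0. The upper 95% bounds in mature against immature cells corresponded to folds of 1.75 for miR-24, 1.83 for miR-23b, 1.89 for miR-23a, 1.94 for miR-27a and 2.27 for miR-27b, and the lower bounds to 0.59 to 0.92. Changes between each member's bounds are not excluded by these 8 arrays.

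**Figure D2:**
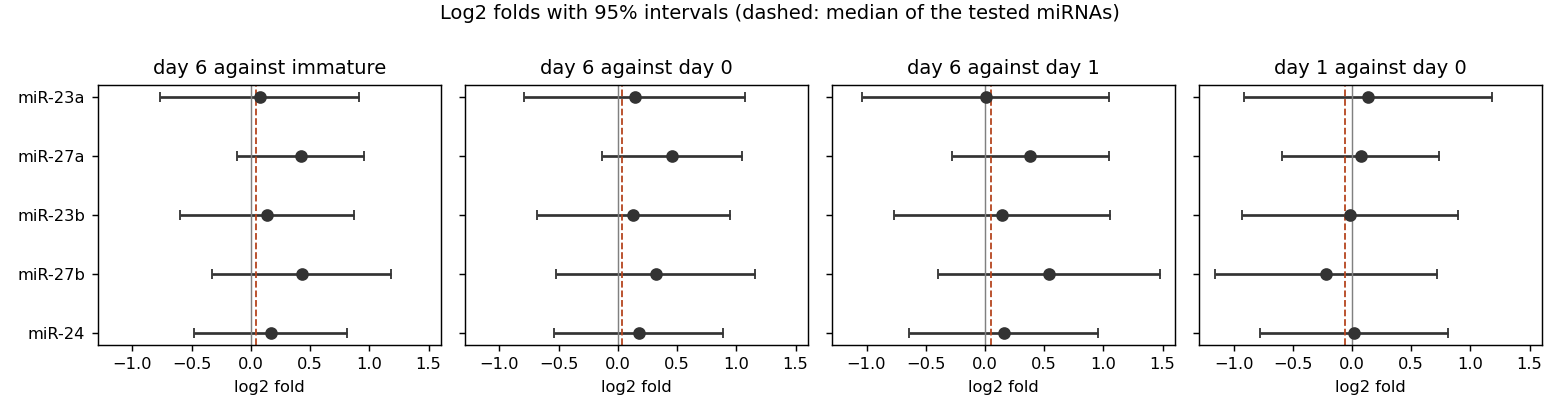
Log2 fold (horizontal axis) of each member in 4 comparisons of days, as points with 95% intervals from the limma model; the grey line marks 0 and the dashed line the median over the 199 tested miRNAs. All 20 intervals include 0, and the day 6 estimates for miR-27a and miR-27b lie farthest to the right.

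All arrays lay on 1 slide with 1 scan date, in 2 rows. With the slide row as a block the folds of day 6 against immature cells were 0.40 for miR-27a, 0.41 for miR-27b, 0.13 for miR-24, 0.11 for miR-23b and 0.03 for miR-23a. Within the row of 2 mature and 2 immature arrays the 5 differences ran from 0.17 to 0.56. Within the other row, which held 1 mature and 3 immature arrays, they were 0.19 for miR-27a, 0.25 for miR-27b, 0.01 for miR-23b, -0.10 for miR-24 and -0.32 for miR-23a. That row includes day 0 replicate 1. Without it all 5 differences lay above 0, at 0.08 for miR-23a, 0.16 for miR-24, 0.20 for miR-27a, 0.31 for miR-23b and 0.39 for miR-27b, from 1 mature and 2 immature arrays.

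The second probe of each member gave the same picture. In the 20 folds (5 members, 4 comparisons) both probes had the same sign in 20 of 20, and they differed by at most 0.11. The difference between the probes of 1 miRNA had an SD over the 8 arrays of 0.02 (miR-24) to 0.07 (miR-23b), far below the within-day SDs of 0.26 to 0.55. The variation of the members between arrays of 1 day was therefore larger than the disagreement of spots or probes within an array.

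Next the members were set against each other within arrays, since such a difference does not depend on the scaling. From immature to mature cells, miR-23a minus miR-23b changed by -0.05 and miR-27a minus miR-27b by 0.02 on the log2 scale. Within the clusters, miR-23a minus miR-27a changed by -0.34 and miR-23b minus miR-27b by -0.27. Leaving out 1 array at a time gave -0.47 to -0.15 for the former and -0.35 to -0.16 for the latter. The -0.15 is without day 0 replicate 1, where miR-23b minus miR-27b changed by -0.20, and the -0.16 is without day 1 replicate 2, where miR-23a minus miR-27a changed by -0.21. None of the 4 passed an exact two-sided permutation test over the arrays (3 against 5), with p = 0.911, 0.929, 0.411 and 0.214 and adjusted p of 0.929, 0.929, 0.821 and 0.821 by exact permutation; the smallest p that 56 splits can give is 0.0179. A single pair at that p would have an adjusted p of 0.0714 over the 4 exact permutation tests, so 1 unequal pair alone could not have passed 0.05. MiR-24 was in none of the pairs.

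The paralog differences varied widely between arrays of the same kind: miR-23a minus miR-23b had an SD of 0.43 over the 5 immature and 0.39 over the 3 mature arrays. Expressed as the deviation from its own mean over the 8 arrays, miR-23a minus miR-23b was 0.26, -0.58 and 0.20 at day 0, -0.27 and 0.48 at day 1, and -0.24, 0.42 and -0.27 in the mature cells. Each day held arrays on both sides, and no array lay between -0.24 and 0.20. The pair's other probes gave 0.26, -0.61 and 0.27, then -0.32 and 0.54, then -0.36, 0.50 and -0.29, with the same sign on all 8 arrays.

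MiR-27a minus miR-27b had deviations of -0.27, -0.41 and 0.30 at day 0, -0.06 and 0.40 at day 1, and -0.40, 0.51 and -0.07 in the mature cells. On 7 of 8 arrays the sign was that of the miR-23 pair, day 0 replicate 1 being the exception. On day 0 replicate 3, day 1 replicate 2 and day 6 replicate 2, the miRNAs of the chromosome 8 cluster were thus high relative to their chromosome 13 counterparts in both pairs. These comparisons of single arrays were made after the values were seen.

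Markers of the labelled cell type varied over the same arrays. MiR-338-3p, a miRNA that promotes oligodendrocyte differentiation, stood at 7.04 (not detected), 11.53 and 8.64 at day 0, 11.16 and 7.66 at day 1, and 11.22, 9.54 and 10.92 in the mature cells. It lay between 10.92 and 11.53 on the 4 arrays where miR-23a minus miR-23b was below its mean, and between 7.04 and 9.54 on the other 4. MiR-219, which likewise promotes differentiation, had 8.14 on day 0 replicate 2, 6.72 on day 1 replicate 1, and 6.36 and 7.17 on day 6 replicates 1 and 3. On the other 4 arrays it had 5.10 on day 0 replicate 3, 5.79 on day 6 replicate 2, and no value above the floor of 4.20 on day 0 replicate 1 and day 1 replicate 2. The arrays fall into separate sets in the miR-23 difference, so no correlation is given. The pattern was seen in these same values, and it was not tested, nor was its part in the members' values. In a bulk sample, fewer cells of a type and less RNA per cell cannot be told apart.

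**Figure D3:**
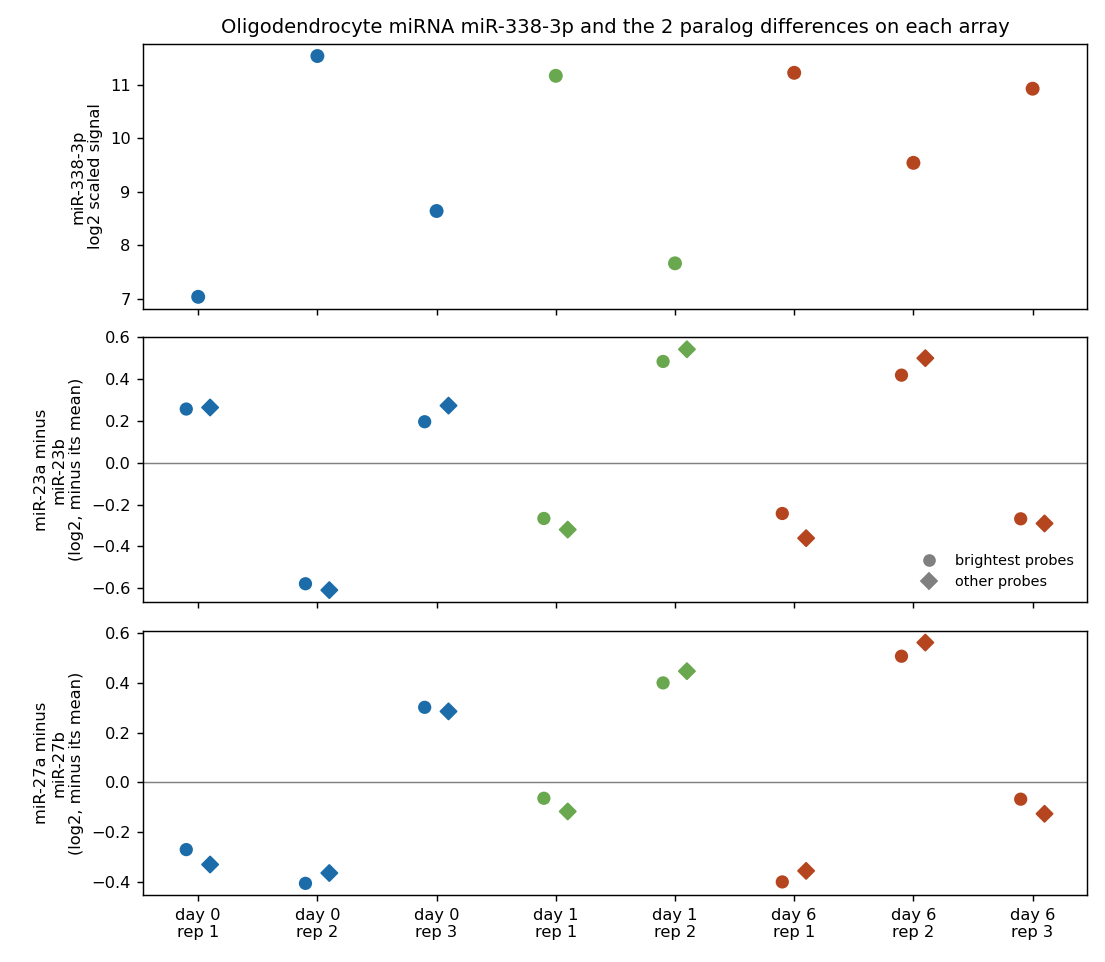
Log2 scaled signal of miR-338-3p (top) and the within-array log2 differences miR-23a minus miR-23b (middle) and miR-27a minus miR-27b (bottom), each difference after subtracting its mean over the arrays, for the 8 arrays (blue day 0, green day 1, red day 6; circles for the brightest probes, diamonds for the others). Differences above 0 in the middle panel, from 0.20 to 0.48 for the brightest probes, stand on the 4 arrays whose miR-338-3p lies between 7.04 and 9.54.

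Of the 4 oligodendrocyte markers (miR-219, miR-338-3p, miR-338-5p and miR-138), 0 to 4 were detected per array on day 0, 1 to 4 on day 1 and 3 to 4 on day 6, and the summed signal of those detected ran from 0 to 3468, 202.6 to 2536 and 860.7 to 2610. The 0 belongs to day 0 replicate 1, where the negative control spots spread most widely. Of the differentiation list with miR-32 added, 0 of 5 were called in mature against immature cells (median log2 fold 0.80). Without day 0 replicate 1 the median was 0.40, with 0 of 5 called. Endothelial markers, miR-126-3p and miR-126-5p, were detected on 0 of 8 arrays, as were 3 of 3 erythroid markers (miR-451, miR-144 and miR-486). Markers of microglia and leukocytes were miR-223, miR-142-3p, miR-142-5p, miR-146a, miR-150 and miR-155. They were present throughout, with 5 of 6 detected on at least 1 array. Their summed signals were 1199 to 2664 on day 0, 1574 to 1772 on day 1 and 1227 to 2067 on day 6. The astrocyte markers were the miR-29 family alone (miR-29a, miR-29b and miR-29c), with 3 of 3 detected on every array. They summed to 1172 to 1527, 853.5 to 1345 and 1442 to 2032. Fibroblast and mural cell markers (miR-143, miR-145, miR-199a-3p, miR-199a-5p and miR-214) had 4 of 5 detected on at least 1 array. They summed to 0 to 80.9, 67.4 to 117.8 and 50.5 to 423.9. Neuron markers (miR-124, miR-128, miR-132, miR-212, miR-137 and miR-129-3p), 6 of 6, summed to 234.7 to 694.6, 630.5 to 726.1 and 418.1 to 1605. The day 0 lows of 1199, 0 and 234.7 came from day 0 replicate 1, where undetected markers added nothing. On day 0 replicates 2 and 3 these lists had 2664 and 1419, 80.9 and 71.2, and 596.7 and 694.6. The part of other cells in the members' signal was not tested.

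The passenger strands of the miR-24 hairpins differ in sequence, although miR-24 itself does not. Those of Mir24-1 and Mir24-2 share their first 16 bases, and capitals mark the bases that follow. These stretches differ in length and in the bases before a shared end, CAGU. Either strand may therefore bind the probes of the other, and how much was not measured. Both are shown because no other strands of these hairpins on the array differ in sequence.
miR-24-1-5p, on the array as miR-24-1* (chr13:63301213-63301235): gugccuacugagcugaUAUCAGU
miR-24-2-5p, on the array as miR-24-2* (chr8:84208839-84208860): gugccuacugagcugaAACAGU

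MiR-24-2*, from chromosome 8, was dim. It stood at the floor of 4.20 on day 0 replicate 1, at 5.32 and 4.92 on the other day 0 arrays, at 5.25 and 4.58 at day 1, and at 5.58, 5.98 and 5.43 in the mature cells. All 3 mature arrays lay above all 5 immature ones, as in 3.52% of all 199 miRNAs. It was detected on 3 of 3 mature and 3 of 5 immature arrays. Its log2 fold of 0.80 ± 0.32 SE was not called (limma adjusted p = 0.340), and it was 0.65 without day 0 replicate 1. MiR-24-1*, from chromosome 13, was detected on 2 of 3 mature and 2 of 5 immature arrays, with 4.93 on day 0 replicate 2, 4.35 on day 1 replicate 1, 4.67, 4.37 and 4.57 on day 6 and the floor elsewhere (log2 fold 0.17 ± 0.24 SE, limma adjusted p = 0.860). The other probe of miR-24-1* stood at the floor, undetected, on all 8 arrays, so the levels and detections of this strand rest on a single probe. Whether the strands of Mir24-1 and Mir24-2 changed unequally was not tested. The array also held the passenger strands of Mir27a and Mir27b, detected on 0 of 8 arrays. Those of Mir23a and Mir23b were not found on the array under the names miR-23a* and miR-23b*, and were not analysed here.

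**Figure D4:**
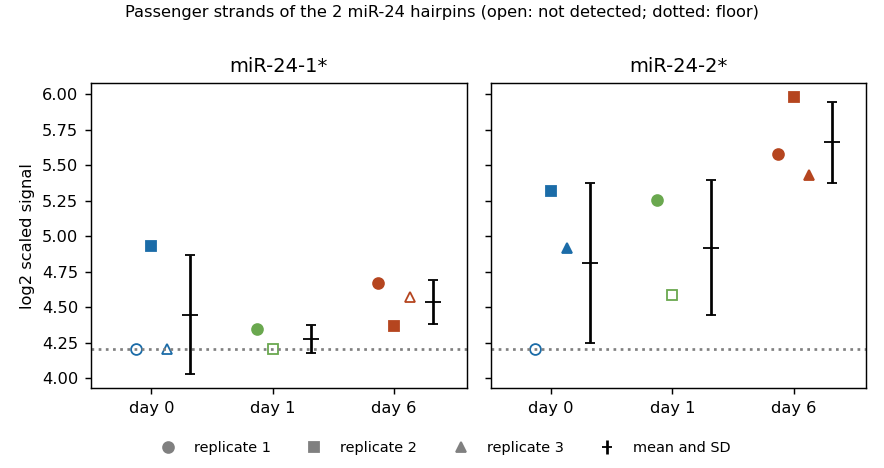
Log2 scaled signal (vertical axis) of miR-24-1* and miR-24-2* on each array by day, with open markers for arrays where the strand was not detected, a dotted line at the floor of 4.20 and black bars for mean and SD. MiR-24-2* lies between 5.43 and 5.98 on day 6 and at or below 5.32 on the immature arrays.

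Finally, profiles over the 8 arrays were compared by the root mean square difference of log2 levels after subtracting each miRNA's own mean, over the 198 other tested miRNAs. MiR-23b and miR-24 were each other's nearest profile, at 0.13, against a median of 0.58 for miR-23b and 0.57 for miR-24. Next to miR-23b came miR-125a-5p (0.25) and its cluster neighbour miR-27b (0.27), and next to miR-24 came miR-125a-5p (0.19) and miR-212 (0.20). The profile of miR-23a lay nearest to miR-221 (0.17), miR-1198 (0.25) and miR-125a-5p (0.26). For miR-27a the nearest were miR-22* (0.17), miR-29c (0.20) and miR-29a (0.20), and for miR-27b they were miR-140 (0.24), miR-142-5p (0.25) and miR-23b (0.27). Cluster neighbours were not always among the nearest. On chromosome 8, miR-27a ranked 33rd among the profiles nearest to miR-23a, at 0.46 against a median of 0.67. MiR-24, which both clusters yield, ranked 5th there, at 0.27. These ranks are given over all 8 arrays only. Without day 0 replicate 1, miR-23b and miR-24 were again each other's nearest, at 0.14 over 7 arrays, while the nearest of the others became miR-155 for miR-23a (0.14), miR-29a for miR-27a (0.13) and miR-146b for miR-27b (0.21). All profiles share the arrays and their scaling, and miRNAs of nearly constant level lie near each other by this measure. Values at the floor add to such likeness. MiR-155 stood at the floor on day 0 replicates 2 and 3 and on day 6 replicate 3. MiR-22* had a log2 fold of 0 between day 1 and day 0, which values at the floor would give.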

How the data were processed

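MiRNA levels were measured on 8 one-colour Agilent arrays of total RNA, 1 sample each. The deposited spot files hold intensities from Agilent Feature Extraction 9.5, per the file headers: background-subtracted on a linear scale, possibly below 0, and not scaled between arrays. The deposited table of the whole series holds the same intensities (largest difference 0, not centred), with column medians over the non-control spots of -6.93, 2.90, 3.28, 3.13, 0.768, 2.83, 1.74 and 1.78 in the order of days and replicates. Other flags per spot (well above background, outlier, saturated) come from the same deposited files.

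Spots marked as outliers were removed, and each probe took the mean of its remaining spots. It counted as detected where the well-above-background flag was set for a share of at least 0.5 of its spots. For scaling, array values were divided by the 75th percentile of the 91 probes that every array detected, which include the 10 member probes. Scaled values below a floor of 18.4, the 5th percentile among detected ones, were raised to it, and log2 was taken. A miRNA has the value of its brightest probe. Of 611 mouse miRNAs, the 199 detected on at least 3 arrays were tested.

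R 4.3 with limma 3.58 fitted 1 mean per day to all 8 arrays (immature being the average of the day 0 and day 1 means), with empirical Bayes moderation, two-sided tests and Benjamini-Hochberg adjustment over the 199. Differences within arrays had exact permutation tests. Figures used Python 3.11 and matplotlib 3.10. Scripts were tested on simulated data. The text names the members, their hairpins' passenger strands, miRNAs sharing a seed, the differentiation and marker lists, and the 3 nearest profiles of each member. Members and lists were chosen with earlier results of these data known. Alternatives concerned scaling, background, probes, floor, filter, outliers, blocks, weights and arrays. The number of arrays limits precision.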

Additional observations from a re-analysis of the deposited data

Results flagged for a closer look

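Among the 5 immature arrays, the level of miR-24-1* on day 0 replicate 2, 4.93, lay apart from the other 4, with a gap of 0.805 of the whole range, more than Dixon's 95% critical value for 5 samples. The remaining 4 arrays lay at 4.20 to 4.35, with 3 of them at the floor. The strand's other probe stood at the floor on every array, day 0 replicate 2 included. For values not cut at a floor, chance alone flags about 1 in 20 such groups, and 11 were examined. That rate does not hold for this group, because 3 of its 5 values are tied at the floor.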

How the results depend on the processing

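Across the alternatives tried, 0 of 5 members were called in any of the 4 comparisons; the lowest adjusted p by limma was 0.0593, for miR-27a in mature against immature cells with scaling to control probes (log2 fold 0.935). Of 511 values under 23 other settings, 448 kept their sign and call and 63 changed sign, none of them a called value. MiR-27a and miR-27b kept a fold above 0 in mature against immature cells under all 22 settings (0.080 to 0.94 and 0.089 to 0.94). MiR-24-2* did so under all 21 (0.38 to 1.29, lowest adjusted p by limma 0.0593).

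Below, the order of names fixes the order of values. Without scaling, the folds of mature against immature cells were -0.27, -0.20, -0.17 and -0.15 for miR-23a, miR-23b, miR-24 and miR-24-1*. Those of day 6 against day 0 were -0.34, -0.35, -0.020, -0.16 and -0.30 for miR-23a, miR-23b, miR-27a, miR-27b and miR-24. Day 6 against day 1 gave -0.20, -0.058 and -0.044 for miR-23a, miR-23b and miR-24, and day 1 against day 0 gave -0.14, -0.20 and -0.26 for miR-23a, miR-27a and miR-24. The median of all miRNAs in mature against immature cells moved from 0.042 to -0.28 there, to 0.51 with control probes and to -0.0084 with all probes. Scaling over all probes gave -0.27, -0.13 and -0.11 in day 6 against day 1 for miR-23a, miR-23b and miR-24, 0.62 and 0.41 in day 1 against day 0 for miR-23b and miR-27b, and -0.0097 for miR-24-1*. In day 1 against day 0, control probes gave -0.0064 and -0.063 for miR-27a and miR-24, and signal summed over probes gave -0.043, -0.069 and -0.14 for miR-23a, miR-27a and miR-24. Array weights gave -0.018 for miR-23a in day 6 against day 1 and 0.27 for miR-23b in day 1 against day 0. The slide row as a block gave -0.022 for miR-23a in day 6 against day 1 and -0.009 for miR-24 in day 1 against day 0. The causes of these changes were not tested.

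Leaving out 1 array at a time turned the sign of 14 results, none of them called. In mature against immature cells the folds ran from -0.089 to 0.29 for miR-23a and -0.051 to 0.28 for miR-23b. In day 6 against day 0 they ran from -0.12 to 0.57 for miR-23a, -0.25 to 0.41 for miR-23b, -0.0017 to 0.53 for miR-27b and -0.095 to 0.44 for miR-24, and in day 6 against day 1 from -0.26 to 0.27 for miR-23a. In day 1 against day 0 they ran from -0.13 to 0.57 for miR-23a, -0.39 to 0.27 for miR-23b, -0.13 to 0.27 for miR-27a, -0.65 to 0.21 for miR-27b and -0.25 to 0.28 for miR-24. The change in miR-23a minus miR-23b ran from -0.27 to 0.070 and that in miR-27a minus miR-27b from -0.23 to 0.23.

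Calls over all miRNAs depended on the setting: 4 in mature against immature cells became 0 to 11, 8 in day 6 against day 0 became 1 to 16, 0 in day 6 against day 1 became 0 to 9, and 3 in day 1 against day 0 became 1 to 4. The highest counts came with array weights (11, and 9 in day 6 against day 1), control-probe scaling (16), the doubled floor (4) and, for 11 again, without day 0 replicate 1. Between same-numbered samples the correlation of deviations was over 0.1 in 3 of 7 pairs (-0.708 to 0.317). With 2 arrays at day 1, their correlations with any other array are equal and opposite. Day 0 replicate 2, for instance, had 0.708 with day 1 replicate 1 and -0.708 with day 1 replicate 2. Such tied values cannot decide whether same-numbered samples shared a preparation. With the replicate block the 5 folds of mature against immature cells were 0.19, 0.25, 0.47, 0.53 and 0.27 for miR-23a, miR-23b, miR-27a, miR-27b and miR-24, and day 1 against day 0 gave -0.089, -0.037 and -0.19 for miR-23a, miR-27a and miR-24. The block moved the calls over all miRNAs from 4 to 0 in mature against immature cells and from 8 to 1 in day 6 against day 0. Using the second probe of each member was chosen after the data were seen, as were the within-row values, the differentiation list's median and the nearest profiles without day 0 replicate 1.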
